A study of Mus musculus with 15 samples.

Results

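The 9 genes described here encode the enzymes that turn farnesyl diphosphate into squalene and squalene into cholesterol, taken in pathway order as Fdft1, Sqle, Lss, Cyp51, Msmo1, Nsdhl, Hsd17b7, Sc5d and Dhcr7. They were found by symbol among the 54390 genes counted in each library, and all 9 were present and expressed. RNA was sequenced in 15 libraries from BV2 cells, an immortalised mouse microglial line used as a macrophage model. Wild-type (WT) cells and cells labelled Trem2KO, which were made from a Cas9-expressing BV2 line with a guide against Trem2, were kept overnight in medium alone (non-foamy) or in medium with 20 μg/mL soluble cholesterol (foamy). The groups held 4 WT non-foamy, 4 WT foamy, 3 Trem2KO non-foamy and 4 Trem2KO foamy libraries. The Trem2KO line was cloned by limiting dilution, so differences between its cells and WT cells cannot be told apart from differences between clones, and the sources used here do not say whether the WT cells carried Cas9. The soluble cholesterol was a complex with methyl-beta-cyclodextrin, and medium alone held no carrier, so the sterol and its carrier cannot be told apart either.

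Cells make cholesterol from acetyl-CoA in the endoplasmic reticulum. The first steps build farnesyl diphosphate, which also feeds other products, whereas squalene formation by Fdft1 is the first step committed to sterols. Sqle and Lss then oxidise squalene and close it into lanosterol, Cyp51 with Msmo1, Nsdhl and Hsd17b7 strips methyl groups from the ring, and Sc5d and Dhcr7 set the final double bonds. Transcription of most of these genes is driven by SREBP2, a factor that is cut from its membrane precursor when sterols in the endoplasmic reticulum are low and held back by Insig proteins when they are high.

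Promoter sequence is shown for the members with the largest difference between the 2 cholesterol responses, Msmo1, Cyp51 and Hsd17b7, because the data turn most on their transcript levels. Fdft1, which ranked next, and Sqle have no entry in the RefSeq promoter table that was used (GRCm38.p6, 250 bases before to 50 after the start site). Each window is written 5′ to 3′ on the strand of the gene, in lower case, with matches in capitals. The letters searched on either strand were GGGCGG for the GC box and CACGTG for the E-box, while those of the CCAAT box are its name. The windows lie at chr8:64733529-64733828 on the minus strand for Msmo1, chr5:4104648-4104947 on the minus strand for Cyp51 and chr1:169969156-169969455 on the minus strand for Hsd17b7.
Msmo1: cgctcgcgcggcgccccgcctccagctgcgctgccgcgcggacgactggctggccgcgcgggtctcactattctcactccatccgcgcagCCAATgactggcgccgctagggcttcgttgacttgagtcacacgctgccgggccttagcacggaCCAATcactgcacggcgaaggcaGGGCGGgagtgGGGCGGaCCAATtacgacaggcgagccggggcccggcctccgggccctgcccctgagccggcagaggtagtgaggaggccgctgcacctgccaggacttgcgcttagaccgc
Cyp51: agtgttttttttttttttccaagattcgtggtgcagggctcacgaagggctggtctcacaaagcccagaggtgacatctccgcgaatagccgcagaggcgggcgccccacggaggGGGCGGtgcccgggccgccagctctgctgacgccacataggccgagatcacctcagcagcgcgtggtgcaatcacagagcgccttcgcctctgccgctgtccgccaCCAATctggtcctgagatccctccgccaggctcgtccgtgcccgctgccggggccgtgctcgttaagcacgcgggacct
Hsd17b7: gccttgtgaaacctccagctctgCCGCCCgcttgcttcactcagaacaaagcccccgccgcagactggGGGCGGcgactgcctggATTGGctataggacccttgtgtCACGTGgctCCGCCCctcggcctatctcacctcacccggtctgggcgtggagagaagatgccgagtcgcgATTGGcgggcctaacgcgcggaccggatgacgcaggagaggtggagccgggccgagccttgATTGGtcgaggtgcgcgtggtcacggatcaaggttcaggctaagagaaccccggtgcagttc
The Msmo1 window held CCAAT boxes starting at positions -160, -96 and -55 from the start site, with GC boxes at -73 and -62 between the nearest pair. In Cyp51 a single GC box at -135 preceded a single CCAAT box at -29. Hsd17b7 was the only one of the 3 with an E-box, at -143, among GC boxes at -227, -182 and -134 and CCAAT boxes at -165, -73 and -12. Its CCAAT boxes and the GC boxes at -227 and -134 read on the other strand. Positions count the annotated start base as 1 and the base before it as -1.

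All 7 members with an entry (9 windows, since Dhcr7 had 3 annotated starts) held both a GC box and a CCAAT box in at least 1 window. Counted by window, 7 of 9 held both, against 12.8% of the 32851 promoters in the table, and the first 2 windows of Dhcr7 did not. Singly, a GC box was found in 35.7% and a CCAAT box in 37.4% of all promoters. The E-box occurred in 3 of the 9 windows, 1 each of Hsd17b7, Sc5d and Dhcr7, against 7.15% of promoters. A sterol regulatory element searched as TCACNCCAC was matched in 0 of the 9 windows and in 1.24% of promoters, which says only that these letters were not in these windows. None of the 35 matches in the 9 windows overlapped another (0 pairs), and a match describes the sequence without showing that a factor binds.

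**Figure D1:**
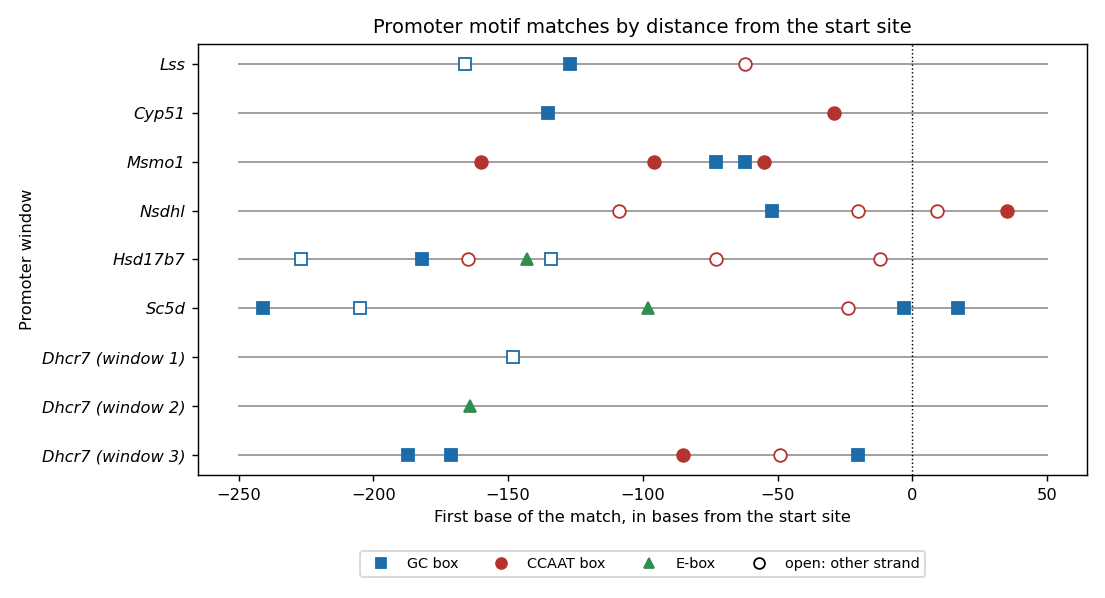
Position of motif matches in the 9 promoter windows of 7 members. The x axis is the first base of each match in bases from the annotated start site (dotted line), each grey line is a 300-base window, and filled and open symbols are matches on the strand of the gene and on the other strand. Matches lie between -241 and 35, and the first 2 windows of Dhcr7 hold 1 match each.

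The libraries held between 23538963 and 41683825 counts, and the 9 members received between 154 and 7365 counts each in a library. Levels below are CPM, that is, counts scaled to a library of 1000000 counts, with library totals adjusted by trimmed mean of M values (TMM). Trem2 itself, the receptor gene that was targeted, was at 329, 345, 415 and 327 CPM in WT non-foamy libraries, 337, 372, 400 and 383 CPM in WT foamy libraries, 232, 214 and 220 CPM in Trem2KO non-foamy libraries and 227, 227, 218 and 226 CPM in Trem2KO foamy libraries. Trem2 transcript was thus lower in every Trem2KO library than in any WT library but not absent, and these counts do not show where the edit lies. The labelled cell type was checked against its markers. Of the 9 microglia and macrophage genes examined, 8 were above 1 CPM in all 15 libraries, with either Tyrobp or Cd68 the most abundant, whereas Cx3cr1, the fractalkine receptor, was under 1 CPM in all 7 Trem2KO libraries (0.149 to 0.696 CPM) and at 0.795 to 1.96 CPM in WT libraries. The 9 had a summed level of 3440, 3706, 4726 and 4773 CPM (group means in the order above). Markers of oligodendrocytes reached at most 2.57 CPM in any library and the fibroblast markers Col1a1, Col1a2 and Pdgfra were at 0 counts in all 15. WT non-foamy library 3, the shallowest, stood apart on the second principal component (-43.6, against -16.2 to 25.9 for the other 14), and without it the members called in each comparison numbered as with it, except for 1 further call in the difference between the responses.

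The entry to the sterol branch was highest in WT non-foamy cells and lowest in Trem2KO non-foamy cells. Fdft1, squalene synthase (chr14:63145150-63179578, minus strand, GRCm38), was at 91.4, 88.8, 91.6 and 88.2 CPM in WT non-foamy libraries and at 52.7, 47.9, 51.5 and 52.0 CPM in WT foamy libraries. In Trem2KO cells Fdft1 was at 39.9, 41.1 and 36.7 CPM without cholesterol and at 57.4, 52.0, 51.2 and 51.3 CPM with it. The non-foamy genotypes lay far apart, the foamy ones overlapped, and the response ran downwards in WT and upwards in Trem2KO cells without overlap. Part of Fdft1 cannot be assigned with certainty, because 18.3% of its exonic bases lie opposite exons of Ctsb, a lysosomal protease at 3653 to 6902 CPM, and the strand setting of the counting is not given in the sources used here. Of the 50-base stretches of Fdft1, 26.5% also occur in other genes, 17.2% in Ctsb and 9.38% in the processed pseudogene Gm6781. Gm6781 itself was counted at no more than 0.190 CPM. Ctsb moved the other way in the WT response and between non-foamy genotypes, where it was higher by 0.27 in WT foamy and by 0.86 in Trem2KO non-foamy cells (log2, adjusted p = 0.0177 and 4.65e-10). In the Trem2KO response Ctsb changed by -0.11 (adjusted p = 0.825). Between foamy genotypes Ctsb was higher in Trem2KO cells by 0.48 (adjusted p = 2.6e-06), and Fdft1 by 0.06 without a call.

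Sqle, squalene epoxidase, an oxygen-requiring and rate-limiting step of the branch (chr15:59315077-59331192, plus strand), was at 136, 136, 118 and 139 CPM in WT non-foamy libraries and at 97.9, 90.8, 84.2 and 90.4 CPM in WT foamy libraries. Its Trem2KO levels were 72.5, 74.7 and 71.6 CPM without cholesterol and 96.4, 91.8, 83.7 and 84.4 CPM with it. The foamy groups overlapped, and all other pairs of groups that differ in 1 factor were separate. Lss, lanosterol synthase, which closes the ring (chr10:76531588-76557138, plus strand), was at 33.7, 35.3, 29.4 and 35.4 CPM in WT non-foamy libraries and at 28.5, 25.6, 21.6 and 24.0 CPM in WT foamy libraries. In Trem2KO cells Lss was at 14.6, 19.02 and 17.0 CPM without and 18.4, 18.9, 17.6 and 15.7 CPM with cholesterol, so that the latter 2 groups overlapped and both lay below every WT library. Of its exonic bases 3.53% lie opposite an antisense gene, 4930483K19Rik.

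Of the enzymes that remove the ring methyl groups, Cyp51, Msmo1 and Hsd17b7 had the widest ranges of group means among the 9 members. Cyp51, lanosterol 14-alpha-demethylase (chr5:4081145-4104746, minus strand), was at 136, 130, 140 and 131 CPM in WT non-foamy libraries and at 74.6, 76.1, 78.1 and 83.5 CPM in WT foamy libraries. In Trem2KO cells Cyp51 was at 41.0, 44.4 and 45.9 CPM without cholesterol and at 63.3, 61.5, 63.9 and 64.3 CPM with it, and no 2 of the 4 groups overlapped. Exons of Akap9 lie opposite 3.76% of its exonic bases. Msmo1, the sterol C4-methyl oxidase (chr8:64718139-64733792, minus strand), had the highest mean level of the 9 in CPM in both WT groups (Sqle had the higher mean in both Trem2KO groups), at 171, 164, 179 and 164 in WT non-foamy libraries and at 90.8, 88.4, 98.7 and 106 in WT foamy libraries. Its Trem2KO levels were 60.4, 55.4 and 50.7 CPM without cholesterol and 92.3, 79.5, 88.5 and 93.0 CPM with it. Again only the 2 foamy groups overlapped.

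Nsdhl, the C4-decarboxylating dehydrogenase encoded on the X chromosome (chrX:72918557-72958514, plus strand), was at 37.7, 35.8, 35.7 and 38.6 CPM in WT non-foamy libraries and at 21.6, 22.5, 24.2 and 27.3 CPM in WT foamy libraries. The Trem2KO values of Nsdhl were 18.98, 17.5 and 18.7 CPM without cholesterol and 26.4, 21.8, 24.1 and 23.3 CPM with it, the latter inside the WT foamy range. Hsd17b7, the 3-ketosteroid reductase that completes C4 demethylation (chr1:169949535-169969241, minus strand), had the lowest level in CPM. It was at 16.9, 20.3, 17.2 and 17.9 CPM in WT non-foamy libraries, 11.2, 10.6, 9.997 and 12.7 CPM in WT foamy libraries, 4.39, 6.78 and 5.23 CPM in Trem2KO non-foamy libraries and 7.73, 7.54, 8.58 and 8.17 CPM in Trem2KO foamy libraries, again with no overlap between any 2 groups.

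At the end of the route, Sc5d and Dhcr7 had the narrowest ranges of group means of all the members. Sc5d, the C5-desaturase (chr9:42251595-42264256, minus strand), was at 81.2, 73.1, 88.1 and 81.8 CPM in WT non-foamy libraries and at 56.1, 59.8, 65.2 and 67.0 CPM in WT foamy libraries, against 49.8, 50.6 and 50.4 CPM in Trem2KO non-foamy and 54.8, 59.0, 60.3 and 66.4 CPM in Trem2KO foamy libraries. Dhcr7, the reductase that turns 7-dehydrocholesterol into cholesterol (chr7:143823145-143848410, plus strand), was at 29.6, 34.7, 25.5 and 32.0 CPM in WT non-foamy libraries and at 28.5, 26.6, 22.4 and 28.4 CPM in WT foamy libraries. In Trem2KO cells Dhcr7 was at 21.1, 20.7 and 24.6 CPM without and 23.0, 24.6, 23.7 and 19.4 CPM with cholesterol. Of the Sc5d groups only the foamy ones overlapped. The groups of Dhcr7 overlapped in both cholesterol responses, while its non-foamy genotypes were narrowly separate. Across members and groups the coefficient of variation between libraries ran from 0.755% to 22.2%, with a median of 7.48%.

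**Figure D2:**
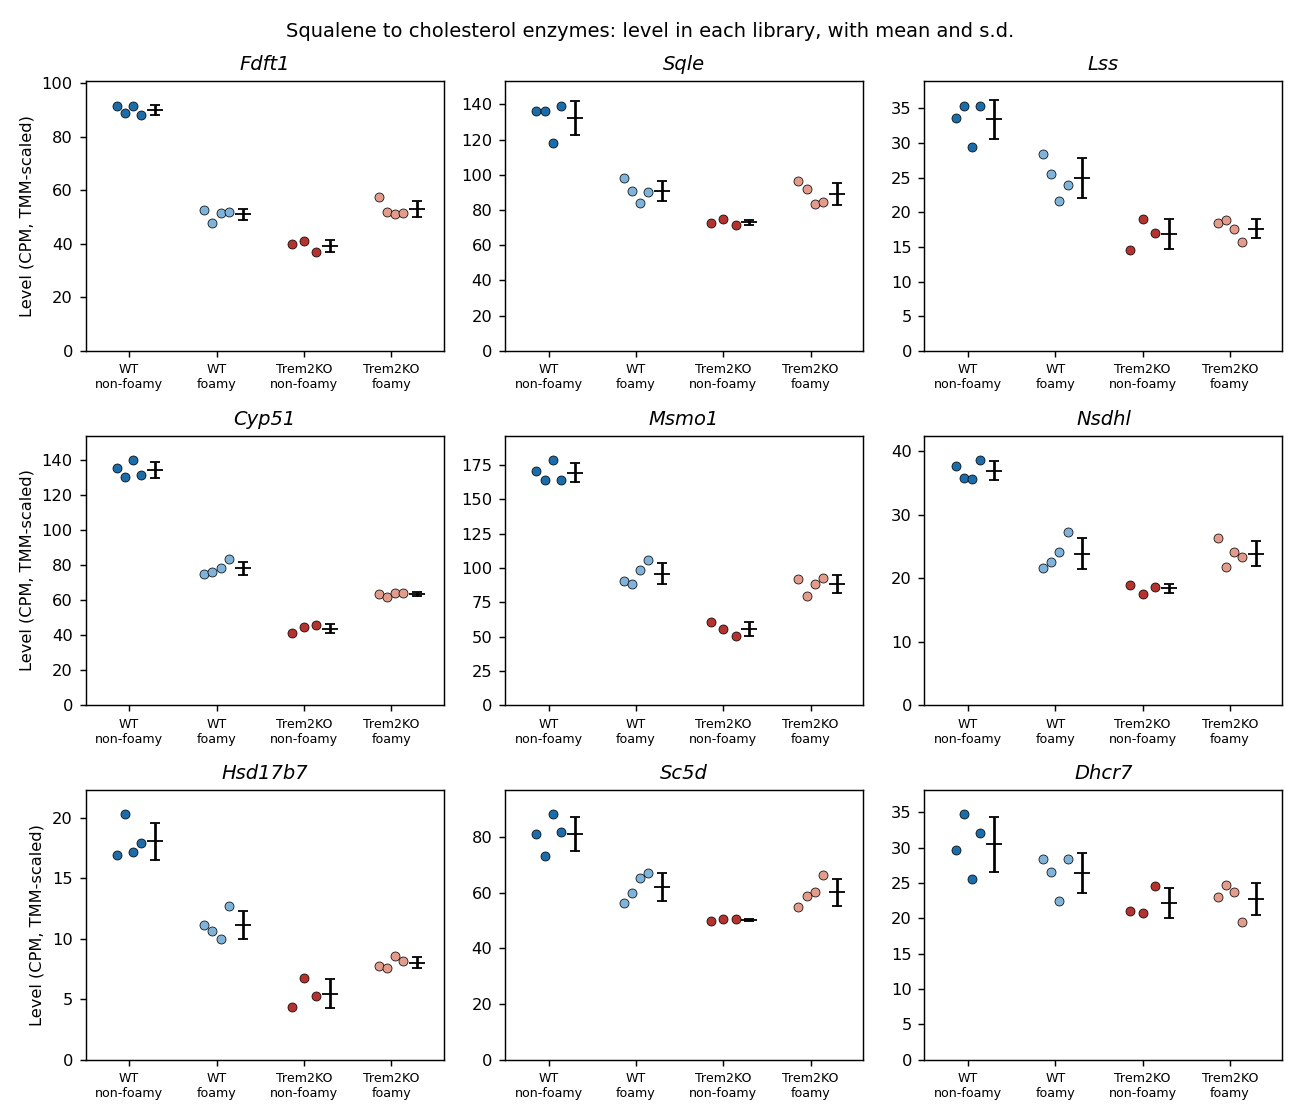
Level of the 9 enzymes in each library (y axis, CPM after TMM scaling, starting at 0) for the 4 groups (x axis). Points are libraries, and the bars to their right give the mean and s.d. The mean of every gene is highest in WT non-foamy and lowest in Trem2KO non-foamy cells, with the foamy groups between. For Lss and Dhcr7 the libraries of the Trem2KO groups overlap.

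The mean level was highest in WT non-foamy and lowest in Trem2KO non-foamy cells for all 9 members. In 7 of them WT foamy came next and then Trem2KO foamy, and in Fdft1 and Nsdhl these 2 were exchanged. The highest group mean exceeded the lowest 1.38-fold for Dhcr7, 1.61-fold for Sc5d, 1.82-fold for Sqle and 3.30-fold for Hsd17b7, with a median of 2.01-fold. Summed over the 9 genes, the level was 726 ± 6.53 CPM in WT non-foamy (SD, n = 4), 464 ± 18.7 CPM in WT foamy (n = 4), 325 ± 4.98 CPM in Trem2KO non-foamy (n = 3) and 426 ± 9.94 CPM in Trem2KO foamy libraries (n = 4). As a share of the WT non-foamy sum these are 64.0%, 44.7% and 58.7%. In these bulk samples, fewer cells with a transcript and less of it per cell cannot be told apart.

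Per length the order of the members differs from that in CPM. In WT non-foamy cells, in CPM per kilobase of all annotated exons (RPKM), Cyp51 came first at 30.4 ± 1.02 and Msmo1 next at 27.6 ± 1.12 (SD, n = 4), followed by Sqle at 23.9, Fdft1 at 21.3, Sc5d at 16.7, Nsdhl at 13.0, Dhcr7 at 5.24, Hsd17b7 at 3.54 and Lss at 3.10. With the longest transcript as the length, Msmo1 led at 57.1 and Hsd17b7 came last at 3.92. In Trem2KO non-foamy cells the order by all exons began with Sqle at 13.2 RPKM, then Sc5d at 10.3, and then Cyp51 at 9.91, whereas by the longest transcript Msmo1 came first at 18.7 and Sc5d, at 10.5, ranked behind Sqle, Cyp51 and Fdft1. Lss, Hsd17b7 and Dhcr7 held the last 3 places in all 4 groups by either length.

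The first comparison asks how WT cells respond to cholesterol. Expression fell for 8 of the 9 members in WT foamy cells (edgeR quasi-likelihood test, Benjamini-Hochberg adjustment over 14237 genes, threshold 0.05), where 2.8% of all genes were called in either direction and 1.14% were lower (1.75% lower and 1.26% higher with scaling by total counts alone). Fdft1 fell by 43.3% (log2 -0.82, s.e. 0.06, adjusted p = 1.56e-08), Msmo1 by 43.4% (log2 -0.82, s.e. 0.07, adjusted p = 2.62e-07) and Cyp51 by 41.8% (log2 -0.78, s.e. 0.06, adjusted p = 1.56e-08). These 3 had the smallest p-values of all genes tested, in the order Fdft1, Cyp51 and Msmo1. Hsd17b7 (-0.70), Nsdhl (-0.63), Sqle (-0.54), Lss (-0.43) and Sc5d (-0.39) also fell on the log2 scale. For Dhcr7 the log2 change was -0.20 (95% interval -0.41 to 0.00, adjusted p = 0.319). The median over members was -0.63, against 0.01 over all genes, and the libraries of the 2 groups did not overlap for 8 of 9 members, as for 9.71% of all genes. The call for Lss (adjusted p = 0.0183) was lost when any one of WT non-foamy libraries 1, 2 and 4 or WT foamy libraries 2 and 3 was left out, with adjusted p between 0.0525 and 0.0599, and with scaling by total counts alone (adjusted p = 0.0669).

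The second comparison asks the same of Trem2KO cells, where the called changes ran upwards. Msmo1 rose by 59.1% (log2 0.67, s.e. 0.08, adjusted p = 7.76e-05), Cyp51 by 44.6% (log2 0.53, s.e. 0.06, adjusted p = 7.76e-05) and Fdft1 by 35.0% (log2 0.43, s.e. 0.06, adjusted p = 0.00167). These 3 of the 9 were called, where 0.14% of all genes were called and 0.105% were higher. Msmo1 had the second smallest p of all genes tested, Cyp51 the fourth and Fdft1 the eighth. For the other 6, the log2 values were 0.56 for Hsd17b7 (adjusted p = 0.169), 0.38 for Nsdhl (0.179), 0.29 for Sqle (0.224), 0.26 for Sc5d (0.453), 0.07 for Lss (0.973) and 0.04 for Dhcr7 (0.978). The 95% intervals of the last 2 ran from -0.16 to 0.29 and from -0.19 to 0.27. Over the 9 members the median was 0.38, against 0.00 over all genes, and 7 had foamy libraries all above the non-foamy ones, where 9.26% of genes were separate in either direction. The number called depended on the tool and the filter. DESeq2 called 6, adding Hsd17b7, Nsdhl and Sqle with adjusted p of 0.0183, 0.0187 and 0.0295. Hsd17b7 was also called by edgeR without a filter on low counts (log2 0.56, adjusted p = 0.0225) and without Trem2KO non-foamy library 2 (log2 0.74, adjusted p = 0.0262).

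**Figure D3:**
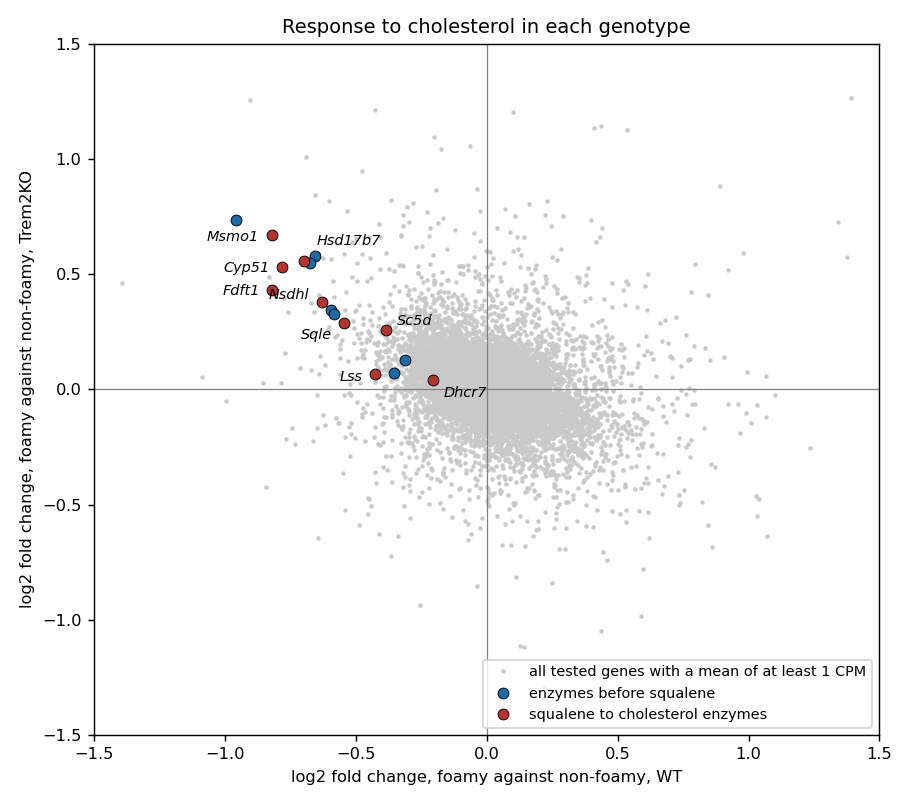
Log2 fold change with cholesterol in WT cells (x axis) and in Trem2KO cells (y axis). Grey points are the 11708 tested genes that averaged 1 CPM or more, of which 6 lie beyond the axes, red points are the 9 squalene to cholesterol enzymes, and blue points are 7 enzymes before squalene. All 9 red points lie to the left of 0 and above 0, from Dhcr7 (-0.20 and 0.04) to Msmo1 (-0.82 and 0.67).

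Without cholesterol the enzymes were lower in Trem2KO than in WT cells throughout. All 9 members were called lower, but this comparison also called 43.6% of all genes, 22.6% in the lower direction (30.8% lower and 12.8% higher with scaling by total counts alone). The log2 change was -1.73 for Hsd17b7 (s.e. 0.13, adjusted p = 4.87e-10), -1.62 for Cyp51 (s.e. 0.06, adjusted p = 2.47e-14) and -1.61 for Msmo1 (s.e. 0.08, adjusted p = 7.68e-13). In mean level, Trem2KO cells held 30.3%, 32.6% and 32.7% of the WT CPM of these genes. Fdft1 (-1.20), Nsdhl (-1.01), Lss (-0.99), Sqle (-0.86) and Sc5d (-0.69) came next, and Dhcr7 had the smallest change (-0.46, s.e. 0.11, adjusted p = 0.00162). The genotype comparisons use the same libraries as the responses. By p, Cyp51 ranked 5th and Dhcr7 3472nd among the 14237 genes. The median over members was -1.01, against 0.02 over all genes, and every Trem2KO library lay below every WT library for 9 of 9 members, where 46.1% of genes were separate.

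With cholesterol the genotypes came close for most of the enzymes. Lss (-0.50, s.e. 0.10, adjusted p = 0.000506), Hsd17b7 (-0.48, s.e. 0.11, adjusted p = 0.00299) and Cyp51 (-0.30, s.e. 0.06, adjusted p = 0.000282) were lower in Trem2KO foamy than in WT foamy cells, and the libraries of the groups did not overlap for these 3 of 9. Of all genes 30.2% were called, 14.3% higher and 15.9% lower, and 28.8% were separate, so that 3 of 9 members is near the background. Fdft1 differed by 0.06 (95% interval -0.07 to 0.18, adjusted p = 0.522), Nsdhl by 0.0019 (-0.17 to 0.17, adjusted p = 0.989), Sqle by -0.03 (-0.17 to 0.11, adjusted p = 0.794) and Sc5d by -0.05 (-0.19 to 0.10, adjusted p = 0.680) on the log2 scale. For Msmo1 the difference was -0.12 (-0.26 to 0.03, adjusted p = 0.218) and for Dhcr7 -0.22 (-0.43 to -0.01, adjusted p = 0.109). Dhcr7 was called by edgeR without WT foamy library 3 (-0.30, adjusted p = 0.0316). The median over members was -0.12. Scaling by total counts alone moved the median of all genes to -0.13 in both genotype comparisons, and with it 6 members were called lower, the further 3 being Msmo1, Sc5d and Dhcr7, where 25.7% of all genes were lower and 7.83% higher under this scaling. Relative to that median their changes were -0.12, -0.04 and -0.22, and those of Fdft1 and Nsdhl, whose sign turned under this scaling, were 0.05 and 0.0032.

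The response itself differed between the genotypes for 7 of the 9 members, each with the higher value in Trem2KO cells, where 3.64% of all genes were called and 1.99% in this direction (2.79% higher and 1.18% lower with scaling by total counts alone). The difference of the responses was 1.49 for Msmo1 (s.e. 0.10, adjusted p = 5.83e-09), 1.31 for Cyp51 (s.e. 0.08, adjusted p = 3.1e-09), 1.26 for Hsd17b7 (s.e. 0.17, adjusted p = 0.000142) and 1.25 for Fdft1 (s.e. 0.09, adjusted p = 5.83e-09) on the log2 scale. Cyp51, Fdft1 and Msmo1 had the 3 smallest p-values among all genes. Nsdhl (1.01), Sqle (0.83) and Sc5d (0.64) were called too. For Lss the difference was 0.49 (95% interval 0.19 to 0.79, adjusted p = 0.0609) and for Dhcr7 0.24 (-0.07 to 0.56, adjusted p = 0.433). The median over members was 1.01. Lss was called by DESeq2 (adjusted p = 0.0175), without a filter on low counts (0.0253) and without any one of WT non-foamy library 3 (0.0293), WT foamy library 1 (0.0349) or Trem2KO foamy library 4 (0.0407). This contrast uses the same libraries as the comparisons above and adds no independent data.

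**Figure D4:**
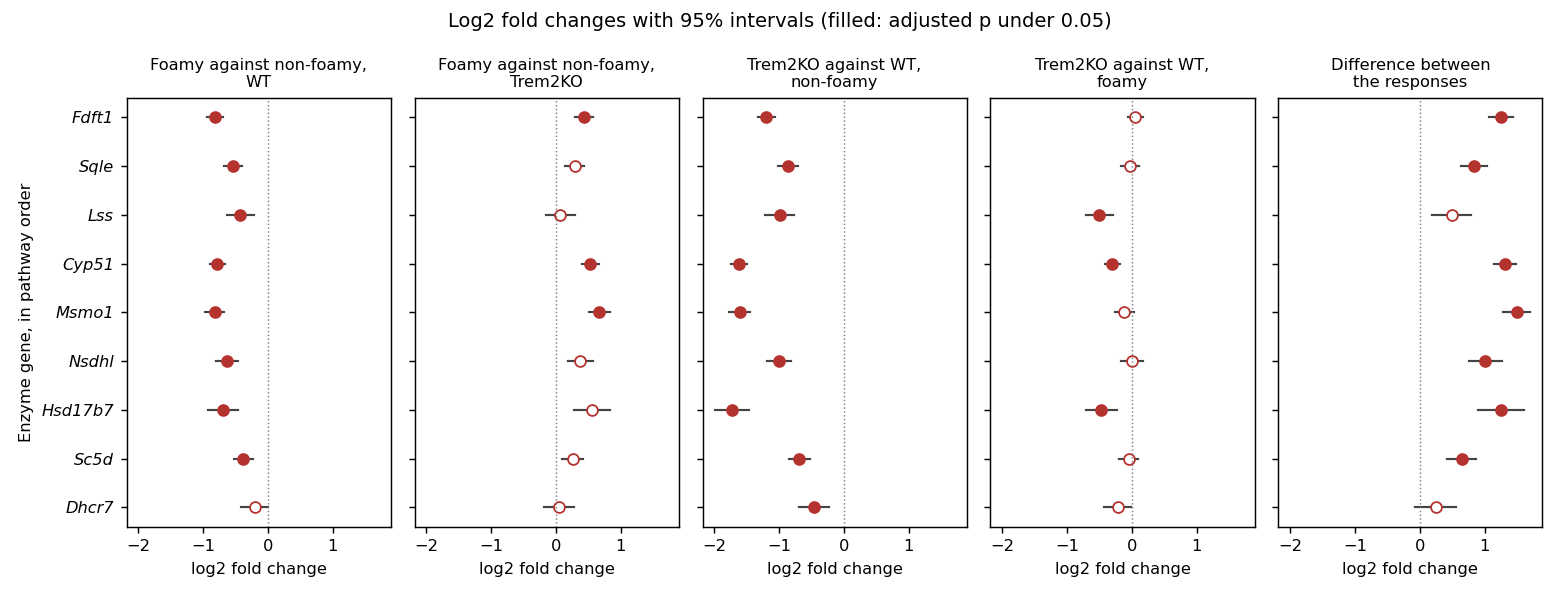
Log2 fold changes (x axis) of the 9 enzymes in pathway order (y axis) in the 5 comparisons. Points are estimates, lines 95% intervals, and filled points have an adjusted p under 0.05. The estimates in the first 2 panels lie on opposite sides of 0 for each gene, and Lss and Dhcr7 show the smallest differences between the responses, 0.49 and 0.24.

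Other enzymes of the same segment were given from a list that leaves out the 9. Lbr and Tm7sf2, which both carry sterol C14-reductase activity after Cyp51, were lower in Trem2KO than in WT non-foamy cells (-1.27 and -1.36 on the log2 scale), and their responses to cholesterol differed between the genotypes by 0.57 and 1.16 (adjusted p = 0.00519 and 0.0397). Tm7sf2, which shares 12.1% of its exonic bases with Vps51 on the same strand (Lbr lies opposite Dnah14 over 9.24% of its own), was scarce, at 5.49 ± 0.637 CPM in WT non-foamy (SD, n = 4) and 2.11 ± 0.857 CPM in Trem2KO non-foamy libraries (SD, n = 3). Ebp, the sterol isomerase that acts before Sc5d, had a log2 change of -0.26 between the non-foamy genotypes (adjusted p = 0.0383) and of -0.12 and 0.21 in the responses (adjusted p = 0.557 and 0.774). The call for Ebp between the non-foamy genotypes was lost without any one of WT non-foamy libraries 2 and 3 or Trem2KO non-foamy libraries 1, 2 and 3. In all, 1 of the 3 tested fell in WT foamy cells (Lbr, -0.42), 0 were called in the Trem2KO response, 3 were lower in Trem2KO non-foamy and 1 in Trem2KO foamy cells (Lbr, -0.70). Over all genes 22.6% and 15.9% were lower in these 2 genotype comparisons, so that 1 of 3 is near the background in foamy cells. For the WT response 1.14% of all genes were lower, for the Trem2KO response 0.14% were called, and for the difference 1.99% were higher. The count of 1 in WT foamy cells was 2 by DESeq2 and without a filter on low counts. The count of 2 for the difference between the responses dropped to 1 when any one library was left out, other than WT non-foamy library 2, Trem2KO non-foamy library 1 or 3 and Trem2KO foamy library 4. In the Trem2KO response, 2 of the 3 (Tm7sf2 and Ebp) had an unadjusted p under 0.05 and DESeq2 called 0.

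The 7 listed enzymes before squalene, lead from acetyl-CoA to farnesyl diphosphate. Between non-foamy genotypes 7 of 7 were lower, where 22.6% of all genes were, from Pmvk (-0.44) to Idi1 (-1.96), the isomerase of isopentenyl diphosphate. In WT foamy cells, where 1.14% of all genes fell, 6 of 7 did, all but Mvk (-0.31, adjusted p = 0.0691), and in Trem2KO foamy cells, where 0.105% of all genes rose, Idi1 (0.74), Fdps (0.58) and Mvd (0.55) did. The foamy genotypes differed for 4 of 7 (30.2% of all genes were called), with Acat2, Fdps and Idi1 lower and Mvd higher in Trem2KO cells, and the difference of the responses was called for 6, up to 1.70 for Idi1, against 1.99% of all genes in this direction. Without Trem2KO non-foamy library 1 the rises in Trem2KO cells numbered 1, without its library 2 or Trem2KO foamy library 3 they numbered 2, and 2 of 7 differed between foamy genotypes without any one of WT foamy libraries 3 and 4 or Trem2KO foamy libraries 2 and 3. Medians were -0.60, 0.34, -0.97, -0.21 and 0.94 in the order of the 5 comparisons, beside -0.63, 0.38, -1.01, -0.12 and 1.01 for the members. Fdps shares 26.7% of its exonic bases with the overlapping gene Gm43738, and exons of Hmgcs1 and Idi1 lie opposite Gm48342 and Gm48574 over 12.1% and 9.22% of their bases, so their counts carry some uncertainty.

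A further list held proteins that supply electrons to these enzymes, hold them together or degrade them. Cyb5b, an outer mitochondrial cytochrome b5, and Erg28, a scaffold of the C4-demethylation complex, were lower in Trem2KO non-foamy cells (-0.77 and -0.81) and fell in WT foamy cells (-0.23 and -0.34, adjusted p = 0.0265 and 0.0190). Among all genes 1.14% were lower in WT foamy cells. The 2 WT calls are fragile, since 0 remained without WT non-foamy library 1 or without WT foamy library 1 or 2, and 1 without WT non-foamy library 4 or WT foamy library 3. Por, the reductase that serves both Cyp51 and Sqle, was higher in Trem2KO non-foamy cells (0.31, adjusted p = 0.0242), as was Marchf6, the ubiquitin ligase that degrades Sqle protein (0.35, adjusted p = 0.00809). Over the 6 tested, 2 were higher and 3 lower between non-foamy genotypes (43.6% of all genes were called) and 3 were lower between foamy genotypes (15.9% of all genes were lower). The call for Por was lost without any one of WT non-foamy libraries 1 and 3 or Trem2KO non-foamy libraries 1 and 3. In this list the responses differed for 2, Cyb5b by 0.46 and Erg28 by 0.51 (1 of them without Trem2KO non-foamy library 1 or 3). For this difference 3.64% of all genes were called and 1.99% were higher. In the Trem2KO response edgeR called 0 of the 6 and 0.14% of all genes. Of the 6, 1 had an unadjusted p under 0.05 (Cyb5b) and 1 was called by DESeq2. Pgrmc1 was listed at 0 in all libraries.

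Of the SREBP2 machinery, 6 genes were tested, and all 6 were called between non-foamy genotypes and 2 between foamy ones, where 43.6% and 30.2% of all genes were. Insig1, a sterol-sensing retention protein that is itself an SREBP2 target, followed the members, with -0.49 in WT foamy cells (adjusted p = 4.39e-05), 0.22 in Trem2KO foamy cells (adjusted p = 0.392) and -0.83 between non-foamy genotypes. Srebf2, which encodes SREBP2, was lower in Trem2KO non-foamy cells (-0.72), as were Scap (-0.49), the escort of its precursor, and Mbtps1 (-0.22), a protease that cuts it, while Insig2 (0.30) and Mbtps2 (0.27) were higher. The calls for Scap and Mbtps1 were lost without any one of WT non-foamy libraries 1, 2 and 4 or Trem2KO non-foamy libraries 1 and 2, which left 4 of the 6. Counts of Mbtps2 and Scap carry some uncertainty, since 28.4% of the exonic bases of Mbtps2 are shared with Yy2 on the same strand and 13.2% of those of Scap lie opposite 5830462I19Rik. In the WT response the log2 change of Srebf2 was -0.28 (adjusted p = 0.158). In the Trem2KO response edgeR and DESeq2 both called 0 of the 6, with 1 (Insig1) at an unadjusted p under 0.05. Between foamy genotypes Scap (-0.56) was lower and Mbtps2 (0.18) was higher, and the responses differed for Insig1 alone of the 6 tested (0.71). For this difference 3.64% of all genes were called and 1.99% were higher. In WT foamy cells 1.14% of all genes were lower, and in the Trem2KO response edgeR called 0.14%. The 2 calls between foamy genotypes became 0 without any one of WT foamy libraries 1 and 2 or Trem2KO foamy libraries 1 and 4, 1 without WT foamy library 4 and 4 with scaling by total counts alone, and for the difference 2 were called without Trem2KO foamy library 4 or without a filter on low counts, which also called 2 in place of 1 in WT foamy cells.

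Of the sterol ester and oxysterol genes, the called changes in WT foamy cells had the opposite sign to those of the members. Soat1, the acyltransferase that esterifies cholesterol for storage, and Cyp27a1, which makes 27-hydroxycholesterol, rose in WT foamy cells (0.21 and 0.35, adjusted p = 0.0428 and 0.0059) and were higher in Trem2KO than in WT cells without cholesterol (0.64 and 0.85) and with it (0.34 and 0.49). In WT foamy cells and between non-foamy genotypes these were 2 of the 4 tested, where 2.8% and 43.6% of all genes were called. Between non-foamy genotypes 21.0% of all genes were higher, and 2 of 4 called is near the 43.6% called in either direction. The responses of Soat1 and Cyp27a1 differed between the genotypes by -0.30 and -0.36 (both adjusted p = 0.0446), where 3.64% of all genes were called. However, 0 of the 2 remained called without any one of WT non-foamy libraries 1 and 2, WT foamy libraries 1 and 2, Trem2KO non-foamy libraries 1 and 3, or Trem2KO foamy libraries 1, 2 and 3, and 1 without WT non-foamy library 3, WT foamy library 4 or Trem2KO non-foamy library 2. In WT foamy cells 1 of the 2 calls was lost when any one WT library other than foamy library 4 was left out. Soat2 was lower in Trem2KO foamy cells (-0.67), which makes 3 of 4 called there against 30.2% of all genes. That call was lost without any one of WT foamy libraries 2 and 3 or Trem2KO foamy libraries 2 and 4. The Soat2 libraries of the foamy genotypes overlapped, and Ch25h and Cyp7b1 were at 0 counts. In the Trem2KO response 0 of the 4 tested were called by edgeR or DESeq2, and 0 had an unadjusted p under 0.05. There edgeR called 0.14% of all genes.

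**Figure D5:**
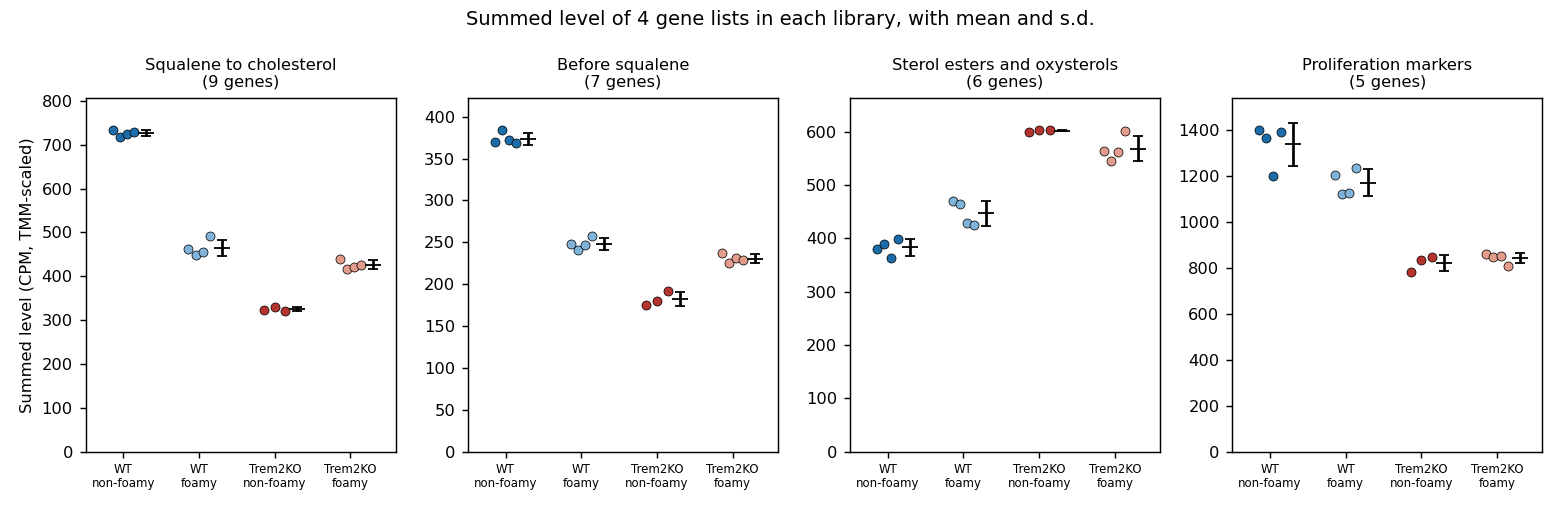
Summed level (y axis, CPM after TMM scaling, starting at 0) of 4 gene lists in each library by group (x axis), with mean and s.d. The squalene to cholesterol sum runs 726, 464, 325 and 426 CPM over the groups, the sum before squalene 373, 248, 182 and 231, the ester and oxysterol sum 383, 447, 602 and 568, and the proliferation sum 1337, 1169, 820 and 841. Most of the ester and oxysterol sum is Soat1, with group means of 357, 414, 557 and 524 CPM.

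To find genes whose pattern over the 15 libraries was most like that of the members, log2(CPM + 0.5) was centred per gene and compared with the mean of the members by the root mean square difference, among the 11708 genes that averaged 1 CPM or more. Among the 5 nearest genes were Hmgcs1 (0.0842), Stard4 (0.0884), Tmem97 (0.108) and Pdss1 (0.116), against a median of 0.426 over all genes, all on the log2 scale. Hmgcs1 encodes HMG-CoA synthase, Stard4 a sterol transfer protein, Tmem97 the sigma-2 receptor and Pdss1 a subunit that makes the side chain of coenzyme Q. When each member was compared with the mean of the other 8, Nsdhl ranked 6th, Fdft1 10th and Sqle 13th of 11700 genes, Lss 120th, Sc5d 252nd, Cyp51 447th and Msmo1 594th, and Dhcr7 (1287th) and Hsd17b7 (1614th) lay farthest. These 2 are also the members with the narrowest and the widest range of group means, 1.38-fold and 3.30-fold.

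Markers of proliferation also moved with genotype. All 5 (Mki67, Top2a, Mcm2, Mcm5 and Ccnb1) were lower in Trem2KO cells without and with cholesterol, where 22.6% and 15.9% of all genes were lower, from -0.51 for Mki67 to -1.55 for Mcm2 in non-foamy cells. Their sum was 1337 ± 93.7 CPM in WT non-foamy (SD, n = 4), 1169 CPM in WT foamy, 820 CPM in Trem2KO non-foamy and 841 CPM in Trem2KO foamy libraries. In the cholesterol responses, Top2a (-0.21) and Ccnb1 (-0.28) fell in WT cells and 0 of 5 were called in Trem2KO cells by edgeR or DESeq2, with 0 at an unadjusted p under 0.05. Among all genes 1.14% were lower in WT foamy cells and edgeR called 0.14% in Trem2KO cells. The responses differed for 1 of the 5, Ccnb1 (0.40 on the log2 scale, edgeR adjusted p = 0.0225), where 1.99% of all genes were higher. The summed microglia and macrophage markers had group means of 4726 CPM in Trem2KO against 3440 CPM in WT cells without cholesterol. In each genotype comparison 6 of the 9 were called higher and 1 lower, where 21.0% of all genes were higher without cholesterol and 14.3% with it. The lower one was Cx3cr1, by -2.35 without cholesterol (adjusted p = 7.61e-05) and -0.98 with it (adjusted p = 0.0401) on the log2 scale. The part of these markers in the enzyme results was not tested.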

How the data were processed

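RNA from BV2 cells was prepared with the TruSeq RNA kit and sequenced. For these tables the authors used Trimmomatic for trimming, HISAT2 for alignment to the mouse genome (mm10 per the labels) and featureCounts for counting per gene. The deposited values are raw counts per gene in 15 tables, not normalised. Whether replicate libraries came from separate cultures is not given in the sources used here, so p-values measure only the spread between these samples, which may be technical. Counts were tested with edgeR 4.0.16 in R 4.3.3 (TMM factors, which ran from 0.918 to 1.11, filterByExpr with a minimum count of 10, quasi-likelihood F-test, 1 mean per group, all 15 libraries). The 14237 genes tested held 99.97% of counts, and the biological coefficient of variation was 10.2%. The standard error is that of the log2 coefficient. Called means a Benjamini-Hochberg adjusted p under 0.05 over all genes tested. Libraries of 1 group were compared in pairs and exceeded sampling noise in each (chi-square per gene from 5.95 to 45.4 over 21 pairs). Alternatives were DESeq2 1.42.0, other scaling and filters, the compared groups alone, a replicate block and leaving out each library. RPKM was computed from exon lengths in GENCODE M21 (GRCm38), which also gave the gene positions. Promoters came from RefSeq. The rule for named genes was every member in pathway order, Trem2, any gene of the listed pathway groups, and the 5 genes nearest in pattern. A few genes that these lists or this rule would name are not reported here, and the counts of lists leave them out. Ctsb and other genes were named where their exons overlap those of a named gene, and Gm6781 for sequence shared with Fdft1. The members and lists were chosen with earlier results of these data known.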

Additional observations from a re-analysis of the deposited data

Results flagged for a closer look

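Of 27 groups of 4 libraries tested for a library far from the others, 2 were picked out, and chance picks out about 1 in 20. Fdft1 was at 57.4 CPM in Trem2KO foamy library 1, where the other 3 lay between 51.2 and 52.0 CPM. Sqle was at 118 CPM in WT non-foamy library 3, where the other 3 lay between 136 and 139 CPM, and without it the WT non-foamy mean of Sqle was 137 CPM.

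The response to cholesterol differed between Trem2KO and WT cells for 7 members by the edgeR test of the difference itself, which called 3.64% of all genes and 1.99% in this direction. On the log2 scale the difference was 1.25 for Fdft1, 0.83 for Sqle, 1.31 for Cyp51, 1.49 for Msmo1, 1.01 for Nsdhl, 1.26 for Hsd17b7 and 0.64 for Sc5d, each with the higher value in Trem2KO cells.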

How the results depend on the processing

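Over the 45 pairs of a member and a comparison, 711 alternative values were computed, of which 679 kept their direction and their side of the threshold, 6 lost and 14 gained a call, and 12 changed sign. No call of a member changed sign. The 6 losses all concern Lss in WT cells. DESeq2 called 6 members in the Trem2KO response, and scaling by total counts alone called 6 between foamy genotypes, where 3 were called in each. Under total counts alone Fdft1 and Nsdhl stood at -0.075 and -0.13 between foamy genotypes, and without a filter on low counts Nsdhl stood at -0.0073. With 1 library left out, the log2 change in the Trem2KO response ran from -0.028 to 0.16 for Lss and from -0.0058 to 0.12 for Dhcr7, and between foamy genotypes from -0.068 to 0.010 for Sqle and from -0.049 to 0.072 for Nsdhl. In those fits the number of members called ran from 7 to 8 in WT cells and from 3 to 4 in Trem2KO cells. It ran from 3 to 4 between foamy genotypes and from 7 to 8 for the difference. Between non-foamy genotypes it was 9 throughout. The cause of these changes was not tested.

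Counts over all genes moved more. They ran from 144 (compared groups alone) to 881 (DESeq2) in WT cells against 399, from 10 to 61 (no filter on low counts) in Trem2KO cells against 20, and from 201 to 985 (DESeq2) for the difference against 518. Leaving out WT non-foamy library 1 or 4 or WT foamy library 1 or 2 moved the WT count by over 1.5 times, Trem2KO non-foamy library 1 or 2 or foamy library 1 or 3 the Trem2KO count, and WT non-foamy library 1, WT foamy library 2, any Trem2KO non-foamy library or Trem2KO foamy library 1 or 3 the count for the difference. Replicate numbers did not pair the samples (1 of 21 same-numbered pairs had a correlation over 0.1), and with a replicate block the members called stayed at 8, 3, 9, 3 and 7 in the order of the 5 comparisons, while 294 genes were called for the difference. Under the block 1 other enzyme of the segment was called for the difference in place of 2, and the sterol ester and oxysterol calls were 1 in WT cells and 0 for the difference in place of 2 each. With the compared groups alone, 0 of the 6 electron and scaffold genes and 1 of the 4 sterol ester and oxysterol genes were called in WT cells in place of 2 each. Under total counts alone or with no filter on low counts, the sterol ester and oxysterol calls were also 1 in WT cells and 0 for the difference. The least abundant member, Hsd17b7, had the fewest counts and the widest intervals.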
